A study of Mus musculus with 115 samples.

Results

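The 10 genes described here encode the granins and the enzymes that cut and finish peptides inside dense-core vesicles, and they were taken by name from the 22870 gene rows of the count table. They are 5 granins (Chga, Chgb, Scg2, Scg3 and Vgf), the 2 prohormone convertases Pcsk1 and Pcsk2 with Scg5, the chaperone of the second convertase, and the enzymes Cpe and Pam. Each library is the cytosol of 1 dentate granule cell drawn into a patch pipette in a slice of the hippocampus of an Rbp4-Cre mouse, a transgenic line with Cre recombinase under Rbp4 control. All mice received retroAAV-EGFP, a virus taken up by axon endings, in the right ventral hippocampus, so that EGFP marks granule cells whose axon crosses the midline (EGFP+). The left hippocampus received AAV.cDIO-mCherry, which expresses mCherry only where Cre is present, together with saline or kainic acid (KA), which activates glutamate receptors and brings on seizures. Granule cells of the left side with EGFP (EGFP+) or without it (EGFP-) were sampled 2 weeks later, whatever their mCherry. After saline, 27 EGFP- and 5 EGFP+ cells were analysed, drawn by the study from 3 mice each. After KA there were 36 EGFP- cells from 3 mice and 27 EGFP+ cells from 9 mice. No label ties a cell to its mouse, so each group counts as 1 sample and no test between groups could be made. The age and sex of the mice are not given in the sources used here.

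Granins are acidic secretory proteins that aggregate in the trans-Golgi network and help to form dense-core vesicles, the organelles that store neuropeptides and release them on strong or repeated firing. Inside the vesicle the convertases cut precursors after pairs of basic residues, carboxypeptidase E (Cpe) removes the basic residues left at the new end, and peptidylglycine alpha-amidating monooxygenase (Pam) turns a terminal glycine into an amide. Granule cells of the dentate gyrus pack opioid peptides and other precursors into such vesicles in their mossy fibre terminals, and seizures are known to alter several of these precursors.

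The start regions of 4 members are shown because a cAMP response element, the site bound by the activity-dependent factor CREB, lies close to the start of 3 of them and a shortened form of it close to that of Chga. Each sequence is the RefSeq window on build GRCm38.p6 from 250 bases before to 50 bases after the annotated start, read 5′ to 3′ on the gene's own strand. Capitals mark the full element TGACGTCA, or its shortened form, TGACG or CGTCA, where it stands apart from a full one.
Scg2, chr1:79439977-79440276, minus strand: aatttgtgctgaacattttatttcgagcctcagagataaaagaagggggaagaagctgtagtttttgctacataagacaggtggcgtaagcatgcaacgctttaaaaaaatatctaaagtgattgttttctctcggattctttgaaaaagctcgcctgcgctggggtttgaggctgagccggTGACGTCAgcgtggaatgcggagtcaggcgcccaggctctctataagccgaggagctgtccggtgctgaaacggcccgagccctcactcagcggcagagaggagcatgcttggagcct
Chgb, chr2:132781392-132781691, plus strand: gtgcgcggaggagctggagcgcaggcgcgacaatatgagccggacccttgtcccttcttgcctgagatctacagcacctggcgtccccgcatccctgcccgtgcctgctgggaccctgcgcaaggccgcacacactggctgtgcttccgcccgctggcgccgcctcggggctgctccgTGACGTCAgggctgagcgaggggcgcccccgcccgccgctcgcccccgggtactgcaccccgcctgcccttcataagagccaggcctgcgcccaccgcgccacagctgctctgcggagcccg
Pcsk1, chr13:75089607-75089906, plus strand: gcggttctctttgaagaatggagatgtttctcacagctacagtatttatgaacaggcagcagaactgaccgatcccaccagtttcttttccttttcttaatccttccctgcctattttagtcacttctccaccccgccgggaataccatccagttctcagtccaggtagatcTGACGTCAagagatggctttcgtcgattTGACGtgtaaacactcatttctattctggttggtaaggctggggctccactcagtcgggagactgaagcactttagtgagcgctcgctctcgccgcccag
Chga, chr12:102554691-102554990, plus strand: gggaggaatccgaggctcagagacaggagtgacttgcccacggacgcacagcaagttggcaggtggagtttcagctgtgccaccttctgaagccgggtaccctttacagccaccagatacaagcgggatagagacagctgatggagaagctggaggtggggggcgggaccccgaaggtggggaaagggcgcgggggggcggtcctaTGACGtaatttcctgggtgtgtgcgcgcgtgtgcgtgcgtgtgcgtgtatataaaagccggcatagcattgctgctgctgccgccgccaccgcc

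The full element, which reads the same on both strands, begins 68 bases before the start in Scg2, 72 before it in Chgb and 78 before it in Pcsk1. These starts are those of RefSeq. The gene spans given below, from GENCODE, begin further upstream for Scg2 and Chgb, so their elements lie inside those spans. RefSeq windows were matched for 8 of the 10 genes, all but Vgf and Cpe, so 3 of 8 genes held the full element. Among all 32851 windows of the same length, 588 (1.79%) held it. The shortened form on either strand, which is contained in every full element, was found in 20.8% of all windows. Apart from a full element, Pcsk1 had it from 50 bases before the start, Chga from 44, Scg3 from 30 and Pcsk2 from 34. The first of 3 copies in Scg5 began 175 bases before the start. Neither window of Pam held either motif. These matches describe the letters only, and binding was not measured in the data used here.

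Levels are given as counts per 1000000 counted reads of the cell (CPM). Total counts per kept cell ranged from 1277978 to 56183007 (median 5221619), and the genes with at least 1 count from 1469 to 9945 (median 5370). Cell titles run in a first series from M1 to M48, which holds KA cells only, and a second from M201 to M272, which holds every saline cell and the other KA cells. In KA EGFP- cells the median number of genes counted was 6974 in the 21 cells of the first series and 3707 in the 15 of the second, against 4448 in saline EGFP- cells. KA EGFP+ cells had a median of 6383 genes in the 24 cells of the first series and 4289 in the 3 of the second. Values inside the second series therefore stand beside the pooled ones. The granule cell marker Prox1 was counted, after thinning each cell to 1000000 counts, in 21 of 27 EGFP- and 2 of 5 EGFP+ cells after saline, and in 23 of 36 EGFP- and 24 of 27 EGFP+ cells after KA. The interneuron markers Gad2 and Slc32a1 had a median of 0 CPM in every group, although Gad2 was counted after thinning in 14 of 36 KA EGFP- cells, at up to 2472 CPM. Gad1, which granule cells can also express, had a median of 214.5 CPM in EGFP- and 7.79 CPM in EGFP+ cells after saline, and of 711.2 CPM and 477.8 CPM after KA. Microglial RNA was common: 16 microglia markers took over 0.1% of the counts in 12 EGFP- and 4 EGFP+ cells after saline and in 6 EGFP- and 10 EGFP+ cells after KA, called microglia-rich below. The summed marker level had a median of 269.1 CPM (range 0.0 to 53720) in EGFP- and 28570 CPM (13.1 to 49990) in EGFP+ cells after saline, and of 85.5 CPM (0.0 to 52950) in EGFP- and 135 CPM (0.0 to 25310) in EGFP+ cells after KA. In 1 KA EGFP- cell, of title M214, no read of any of the 10 genes was counted. That cell had the fewest genes counted (1469), 0 CPM of Prox1, 8.59 CPM over the 15 granule cell markers and 43280 CPM over the 10 astrocyte markers. The 16 microglia markers took 4.42% of its counts. These values go against its label. Pass labels and the table of passed cells also disagree, since 12 of the 20 cells left out of the table carry a pass label and 13 cells in it a fail label. Whether the treatment and EGFP labels carry a like disagreement was not tested, and every difference between groups given here rests on them.

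After KA the vesicle genes as a group stood higher than after saline in EGFP- cells. Their counts made up a median of 0.211% of a saline EGFP- cell's counts (range 0.0161 to 0.609) and 0.89% of a KA EGFP- cell's (0.0 to 2.33). A median of 6 of the 10 genes reached 1 CPM in a saline EGFP- cell and 8 in a KA EGFP- cell, and a median of 8 and 9 had any count. The mean over the 10 genes of log2(CPM+1) was 4.10 ± 1.83 (SD over 27 cells) after saline and 6.57 ± 2.0 (SD over 36 cells) after KA, a difference of 2.47. Of the 10 genes, 8 were higher by at least 1 on the log2 scale and 0 were lower, whereas 29.8% of the 9046 genes with CPM of at least 1 in 20% of cells were higher by that much and 9.71% were lower. The median difference was 2.8 over the 10 genes and 0.46 over the 9046. Inside the second series the mean over the 10 genes was 5.02 ± 1.75 (SD over 15 cells) after KA, a difference of 0.92. There 6 of the 10 genes were higher by 1 or more and 1 was lower, against 9.52% and 33.4% of all genes, and the medians were 1.28 and -0.5. All 10 genes passed the filter on low values, which runs over the kept cells of all groups together. Pcsk1 passed it mainly through KA cells, and its place among the 8 higher genes (1.16) rests on that. Inside the second series Pcsk1 was at -0.52.

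**Figure D1:**
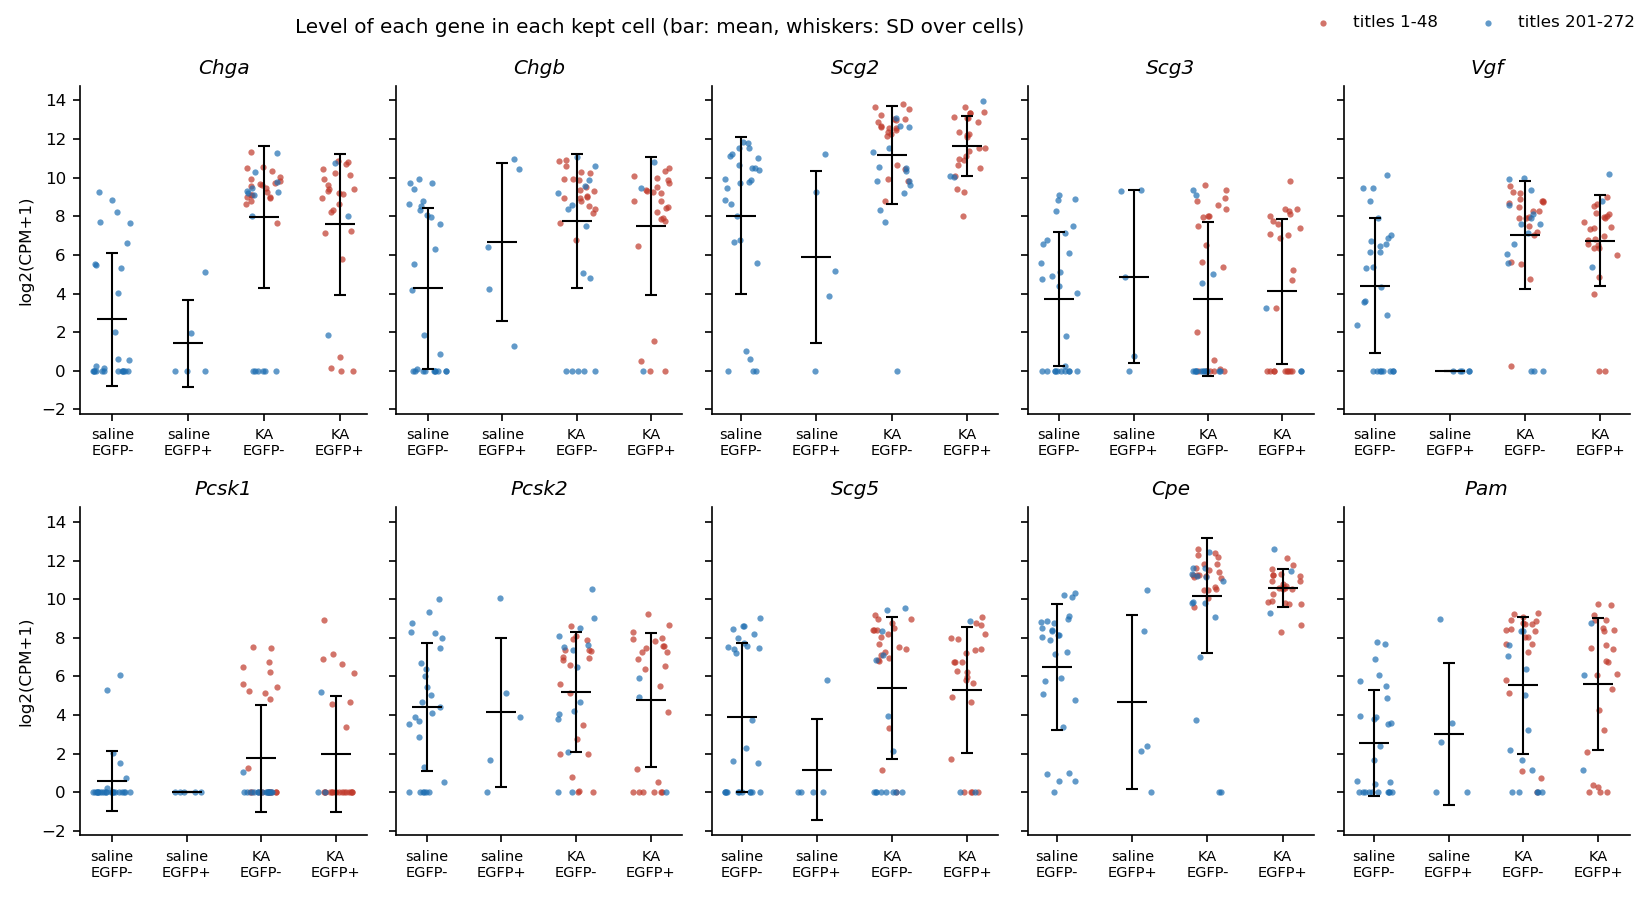
Level of each of the 10 genes in each kept cell, as log2(CPM+1) on the vertical axis, for the 4 groups on the horizontal axis. Points are cells, red for titles M1 to M48 and blue for titles M201 to M272, bars are means and whiskers are SD over cells. Scg2 and Cpe lie highest in both KA groups, and Vgf and Pcsk1 are at 0 in all 5 saline EGFP+ cells.

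Among the granins, Chga (chromogranin A) differed most. It lies on chromosome 12 at 102554969 to 102565028 of GRCm38, plus strand, in 8 exon blocks. It ranged from 0.0 to 607 CPM in saline EGFP- cells with a median of 0.171, and from 0.0 to 2534 CPM in KA EGFP- cells with a median of 603. No count was found in 12 of 27 saline and 6 of 36 KA EGFP- cells, and over 100 CPM in 5 and 30 cells. The ranges overlapped, with the whole saline range inside that of the KA cells. On the log2 scale the mean was 2.68 ± 3.45 after saline and 7.94 ± 3.68 after KA, a difference of 5.27, larger than that of 99.9% of all genes. All 6 KA EGFP- cells without Chga belonged to the second series, in which the difference was 3.04 with an SD of 4.88 over the 15 KA cells. In the 21 KA EGFP- cells of the first series every cell held between 199.5 and 2534 CPM.

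Chgb (chromogranin B, chromosome 2, 132781278 to 132795079, plus strand) ranged from 0.0 to 976 CPM in saline EGFP- cells with a median of 17.4, and 11 of the 27 cells held over 100 CPM. In KA EGFP- cells its median was 502 CPM and its range 0.0 to 2128. It was without a count in 10 saline and 5 KA cells, and the ranges overlapped. The mean log2 level was 4.28 ± 4.18 after saline and 7.77 ± 3.46 after KA, a difference of 3.49 that came to 1.36 inside the second series. Restricting the second series to cells that are also labelled as passed gave -0.39.

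Scg2 (secretogranin II, the precursor of secretoneurin) was the member with the highest level per exon length in 3 of the 4 groups. It lies on chromosome 1 at 79434669 to 79440120, minus strand, in 2 exon blocks. Its level ranged from 0.0 to 3710 CPM (median 872) in saline EGFP- cells and from 0.0 to 14290 CPM (median 4676) in KA EGFP- cells. Only the cell of title M214 lacked it after KA, against 3 cells after saline. Pooled over cells it came to 1086 CPM (95% Poisson interval 1080 to 1092) and 5961 CPM (5952 to 5970), intervals that hold counting error only. The mean log2 level was 8.04 ± 4.07 and 11.19 ± 2.53, a difference of 3.14, and of 1.77 inside the second series. Without microglia-rich cells the differences were 1.65 and 0.63.

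Vgf, a granin-like protein that yields several peptides and is induced by neurotrophins, had a median of 39.0 CPM (range 0.0 to 1128) in saline EGFP- cells and 242.6 CPM (0.0 to 1026) in KA EGFP- cells. The ranges were alike and the bulk differed: 8 of 27 saline and 26 of 36 KA cells held over 100 CPM. Mean log2 levels were 4.42 ± 3.47 and 7.03 ± 2.8, which differ by 2.61, and by 1.88 inside the second series. The gene lies on chromosome 5 at 137026392 to 137033351, plus strand.

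Scg3 (secretogranin III, which binds chromogranin A and vesicle membrane) was the exception among the granins. Its median was 20.2 CPM in saline EGFP- cells (range 0.0 to 556) and 1.73 CPM in KA EGFP- cells (0.0 to 785). The mean log2 levels were 3.70 ± 3.48 and 3.71 ± 4.0, with a difference of 0.00. Inside the second series it was lower by 1 or more, at 1.87 ± 3.42 against 3.70, a difference of -1.84, and 11 of the 15 KA cells there had no count. Scg3 lies on chromosome 9 at 75643189 to 75684056, minus strand.

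The convertases stood lower and were counted in fewer cells. Pcsk1 (PC1/3, chromosome 13, 75089826 to 75134861, plus strand) had a median of 0.0 CPM in both EGFP- groups, with a highest value of 66.8 CPM after saline and 184 CPM after KA. It was counted in 6 of 27 saline cells and 12 of 36 KA cells. After thinning, 18.5% of cells had a count after saline (Clopper-Pearson 95% interval 6.3 to 38.1) and 33.3% after KA (18.6 to 51.0). Of the 12 KA cells with a count, 11 were among the 21 of the first series and 1 was among the 15 of the second. The difference of the mean log2 level was 1.16 over all cells (0.59 ± 1.55 against 1.75 ± 2.78) and -0.52 inside the second series.

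Pcsk2 (PC2, chromosome 2, 143546156 to 143816285, plus strand) had a median of 20.4 CPM (range 0.0 to 1048) in saline EGFP- cells and 92.7 CPM (0.0 to 1450) in KA EGFP- cells. Its mean log2 level was 4.4 ± 3.32 after saline and 5.21 ± 3.1 after KA, a difference of 0.81 that is under 1. Inside the second series the difference was 1.19, and 0.08 when the cells of titles M265 to M272 were left out. Without microglia-rich cells it was -0.01 over all cells. Exons of the antisense genes Pcsk2os1 and Pcsk2os2 overlap 359 exon bases of Pcsk2 and the libraries carry no strand, so reads in that overlap cannot be assigned.

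Scg5 (7B2, which keeps the second convertase inactive until it reaches the vesicle) had a median of 3.86 CPM (range 0.0 to 530) in saline EGFP- cells and 137 CPM (0.0 to 743) in KA EGFP- cells. It was counted in 16 of 27 and 27 of 36 cells. Mean log2 levels were 3.89 ± 3.85 and 5.42 ± 3.68, a difference of 1.54 that was -0.73 inside the second series, where 8 of 15 KA cells had no count. Scg5 lies on chromosome 2 at 113776362 to 113829121, minus strand.

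Both enzymes that finish the peptide ends were higher after KA over all EGFP- cells, but inside the second series only Cpe was higher by 1 or more. Cpe (chromosome 8, 64592542 to 64693054, minus strand), which also acts as a sorting receptor for some prohormones, had a median of 260 CPM (range 0.0 to 1265) in saline EGFP- cells and 2309 CPM (0.0 to 6111) in KA EGFP- cells. Only the highest saline cells reached the lower quartile of the KA cells, which was 1019 CPM. The mean log2 level was 6.49 ± 3.28 and 10.17 ± 2.98, a difference of 3.68, and the difference was 2.15 inside the second series. Pam (chromosome 1, 97795114 to 98095646, minus strand) had a median of 2.14 CPM (0.0 to 222.4) after saline and 174 CPM (0.0 to 620) after KA. Its mean log2 level was 2.55 ± 2.74 and 5.54 ± 3.56, a difference of 2.98 that came to 0.85 inside the second series. An antisense gene, B230216N24Rik, overlaps 188 exon bases of Pam.

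Leaving out microglia-rich cells gave differences of 2.45 over all EGFP- cells and 0.96 inside the second series for the mean over the 10 genes. Leaving out the cell with the fewest genes in each group, which removes the cell of title M214, gave 2.55 and 1.16. Granule cell markers were lower in the same comparison: 0 of 12 past the filter were higher by 1 or more after KA and 8 were lower, with a median difference of -1.5. Inside the second series 0 were higher and 10 lower, with a median of -2.56. Over all cells the summed level of granule cell markers had a median of 4937 CPM (range 458 to 8057) in saline EGFP- and 1048 CPM (5.78 to 7702) in KA EGFP- cells. Of the 15 markers, 2 and 7 had a median of 0. Of 13 microglia markers past the filter 12 were lower, with a median of -2.06. Inside the second series 2 were lower, with a median of -0.67. Among all genes 29.8% were higher and 9.71% lower over all cells, and 9.52% and 33.4% inside the second series. The 2 of 10 interneuron markers past the filter were both higher over all cells, with a median difference of 2.04. Inside the second series 1 of these was higher by 1 or more and 0 were lower, with a median of 2.28. Their summed level over the 10 had a median of 326 CPM (range 0.0 to 2826) in saline EGFP- and 761 CPM (0.0 to 4306) in KA EGFP- cells, and 9 of the 10 had a median of 0 in both groups. Of 6 markers of CA3 and CA1 pyramidal cells past the filter, 3 were higher and 2 lower, with a median of 1.06, and inside the second series 1 was higher and 2 lower, with a median of -0.11. The part of these marker levels in the results was not tested.

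The second series alternates between treatments in 6 runs of consecutive titles, and what a run is, such as a mouse or a day, is not given. Its EGFP- cells fall into 3 saline runs of 6, 6 and 15 cells and 3 KA runs of 8, 2 and 5 cells. Mean log2 levels of Cpe were 7.49, 5.58 and 6.45 in the saline runs and 7.62, 11.23 and 9.24 in the KA runs. For Scg2 they were 9.02, 7.91 and 7.70 in the saline runs and 9.10, 12.08 and 10.04 in the KA runs. For Chga the saline runs gave 4.45, 1.38 and 2.48 and the KA runs 4.70, 10.38 and 5.48. In these 3 genes every KA run lay above every saline run, by a margin of only 0.08 to 0.25 between the nearest runs, while this held for 2.19% of all genes. With medians in place of means Cpe kept that order and Vgf gained it, while Chga and Scg2 lost it. The 2.19% holds for means only, and the share of all genes by medians is not given here. No member had every KA run below every saline run, which held for 15% of all genes. For Pam the saline runs gave 5.08, 1.05 and 2.15 and the KA runs 3.93, 1.61 and 3.28, so the highest run was a saline one. The KA run of titles M233 to M238, with 2 cells, was the highest run for Chga, Chgb, Scg2, Vgf and Cpe. Without it the difference of the mean over the 10 genes inside the second series was 0.73, and without any other single run it was between 0.65 and 1.33.

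**Figure D2:**
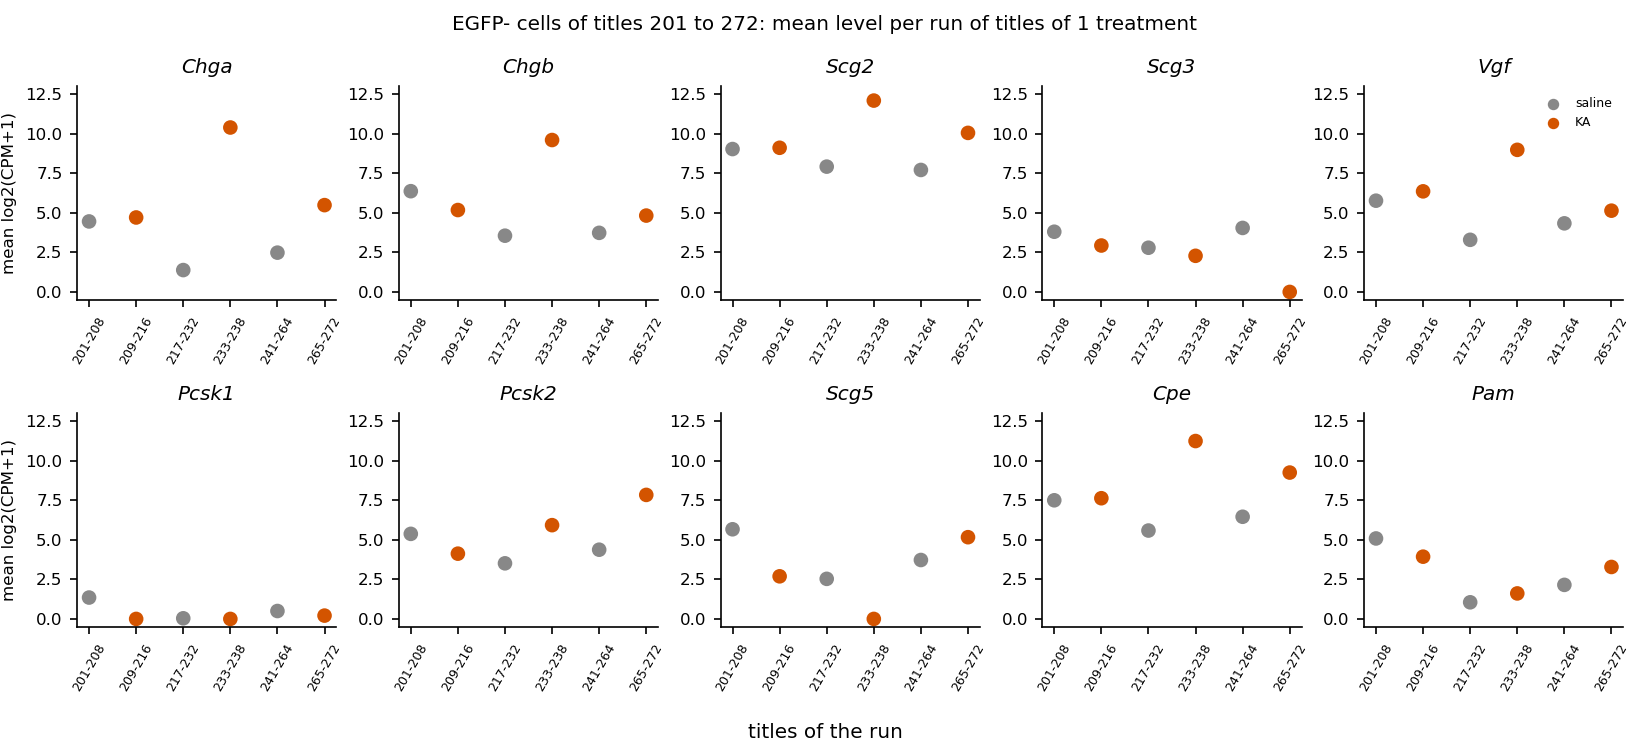
Mean log2(CPM+1) on the vertical axis for each of the 6 runs of titles of EGFP- cells in the second series on the horizontal axis, with grey points for saline and orange points for KA. Each point averages 2 to 15 cells. Chga, Scg2 and Cpe have all KA runs above all saline runs, with the run of titles M209 to M216 close to that of titles M201 to M208, and Scg3 is at 0.0 in the run of titles M265 to M272.

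KA EGFP- cells also differed between the 2 title series. The mean over the 10 genes was 7.68 ± 1.31 in the first series and 5.02 ± 1.75 in the second, a difference of 2.66. Of the 10 genes, 9 were higher in the first series by 1 or more and 0 were lower, against 70.3% and 1.95% of all genes, with medians of 3.02 over the members and 1.64 over all. The largest differences were in Scg5 (3.89), Chga (3.82), Pam (3.66) and Chgb (3.65). Pcsk2 was the only member with a negative value, at -0.65. The cells of the first series had more genes counted, and 0 of them but 6 of the second series were microglia-rich. All saline cells belong to the second series, so a difference between the series and an effect of KA cannot be told apart in the pooled comparison.

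Between the axon classes after KA the vesicle genes had nearly equal levels in the pooled groups. All 10 differences between KA EGFP+ and KA EGFP- cells lay between -0.43 (Pcsk2) and 0.46 (Scg2) on the log2 scale, and the mean over the 10 genes was 6.59 ± 1.73 (SD over 27 cells) against 6.57 ± 2.0. None of the members, 0 of 10, was higher or lower by 1 or more, against 17.1% and 4.13% of all genes. Scg2 ranged from 262.1 to 16140 CPM in KA EGFP+ cells with a median of 3000, and Cpe from 313 to 6130 CPM with a median of 1585, so both were counted in all 27 cells. Chga had a median of 570 CPM (0.0 to 1878), Chgb 449.8 CPM (0.0 to 1828) and Vgf 164 CPM (0.0 to 1156). Pam had a median of 108 CPM (0.0 to 871), Pcsk2 83.2 CPM (0.0 to 608), Scg5 76.7 CPM (0.0 to 539) and Scg3 24.96 CPM (0.0 to 893). Pcsk1 was counted in 9 of 27 cells with a highest value of 489.8 CPM, and its median was 0.0. Scg2 and Cpe had smaller SDs in the EGFP+ cells (1.55 and 0.99) than in the EGFP- cells (2.53 and 2.98), whose second series holds the cell of title M214.

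Inside the first title series the members stood lower in EGFP+ cells, and inside the second the sign rested on 1 cell. In the first series the mean over the 10 genes was 6.68 ± 1.67 in 24 EGFP+ and 7.68 ± 1.31 in 21 EGFP- cells, a difference of -1.01. There 0 members were higher and 4 were lower by 1 or more, against 6.63% and 20.7% of all genes. The median difference was -0.96 over the members and -0.31 over all genes. These 4 were Chga (-1.84), Chgb (-1.70), Scg5 (-1.45) and Pam (-1.41). Within titles M20 to M48, where both classes occur, 5 EGFP+ cells had a difference of -0.75, with 0 members higher and 3 lower (Chgb, Scg3 and Scg5), against 16.4% and 29.7% of all genes. The number of lower members there was near the share of all genes, and the medians were -0.51 and -0.29. In the second series the 3 EGFP+ cells had a mean of 5.90 ± 2.44 and a difference of 0.88, with 7 members higher and 1 (Pcsk2) lower, against 35% and 23.3% of all genes. Those 3 cells spread widely, with 1046, 1074 and 16140 CPM of Scg2 and 2.58, 256.4 and 1754 CPM of Chga. Their means over the 10 genes were 8.71 in the cell of title M234, 4.54 in that of title M235 and 4.44 in that of title M266. Without the cell of title M234 the difference was -0.53, with 1 member higher and 2 lower, against 27.3% and 39.8% of all genes. Microglia markers were higher in EGFP+ cells of the first series, 13 of 13 past the filter by 1 or more, and lower in those of the second, 10 of 13; their part was not tested.

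In saline EGFP+ cells each value rests on 5 cells, of which 4 were microglia-rich. Vgf and Pcsk1 had no count in any of the 5. After thinning, 0 of 5 cells allows a share of cells with a count of up to 52.2% (Clopper-Pearson 95% interval), and 8 of the 27 saline EGFP- cells had no count of Vgf either. Over the 15981396 counts of the group the 3-count floor, which covers counting error only and not the spread between cells, is 0.188 CPM. Against that floor pooled Vgf was at least 649-fold higher in saline EGFP- cells (122 CPM) and at least 1400-fold higher in KA EGFP+ cells (263.2 CPM). Pooled Pcsk1 was at least 15.6-fold higher in saline EGFP- cells, at 2.92 CPM, and at least 230-fold higher in KA EGFP+ cells, at 43.2 CPM. Chgb was counted in all 5 cells at 83.2, 1984, 18.1, 1.45 and 1422 CPM, in the order of titles M222, M230, M247, M252 and M258. Scg2 was at 13.8, 0.0, 2418, 606 and 34.4 CPM in the same order, and Cpe at 3.45, 0.0, 324, 4.35 and 1440 CPM. Scg3 had 27.7, 0.0, 667, 0.725 and 642 CPM, and Pcsk2 had 13.8, 0.0, 1073, 2.18 and 34.4 CPM. Pam had 5.09, 0.0, 498, 0.0 and 10.95 CPM, Chga was counted in 2 cells (34.2 and 2.90 CPM) and Scg5 in 1 cell (55.8 CPM). In the cell of title M230 the only member counted was Chgb.

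Against saline EGFP- cells, 2 members were higher in the saline EGFP+ cells by 1 or more on the log2 scale (Chgb by 2.40, Scg3 by 1.16) and 5 were lower, against 11.6% and 39.3% of all genes. The lower ones were Vgf (-4.42), Scg5 (-2.72), Scg2 (-2.14), Cpe (-1.81) and Chga (-1.25). Leaving out 1 EGFP+ cell at a time gave 1 to 3 higher and 2 to 7 lower members, against 9.8% to 18.5% and 35.8% to 49.4% of all genes: without the cell of title M230 there were 2 lower, and without that of title M247 or M258 there was 1 higher. The mean over the 10 genes was 3.19 ± 1.86 against 4.10 ± 1.83, a difference of -0.91 within the spread of either group. All 13 microglia markers past the filter were higher in the EGFP+ cells, with a median of 4.52. Only the cell of title M252 is left in the group without microglia-rich cells, and there Chgb, Scg3 and Scg5 had the opposite sign (-3.48, -3.92 and 1.41).

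KA EGFP+ cells stood above saline EGFP+ cells in 7 members by 1 or more and below in 0, against 61.5% and 8.36% of all genes. The number of higher members was near the share of all genes. The median difference was 3.36 over the members and 1.43 over all genes. The differences were 6.73 for Vgf, 6.18 for Chga, 5.92 for Cpe, 5.74 for Scg2, 4.14 for Scg5, 2.58 for Pam and 1.99 for Pcsk1. Chgb (0.82), Pcsk2 (0.63) and Scg3 (-0.75) stayed under 1. The mean over the 10 genes was 6.59 ± 1.73 against 3.19 ± 1.86, a difference of 3.40 that was 2.71 with the 3 KA EGFP+ cells of the second series alone. In that series 7 members were higher and 1 (Scg3) was lower, against 38.2% and 25.3% of all genes. Without the cell of title M234 the difference in the second series was 1.3, with 4 members higher and 4 lower, against 28.8% and 37.5% of all genes. All 13 microglia markers past the filter were lower in KA EGFP+ cells, with a median of -4.86 over all cells and -7.54 in the second series, and their part was not tested. Without microglia-rich cells 1 saline EGFP+ cell is left, that of title M252. Against it Chgb (7.03), Scg3 (4.16) and Pam (6.63) had larger differences, and Scg5 was at -0.73. Both groups serve in other comparisons above, so the differences are not independent of those.

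**Figure D3:**
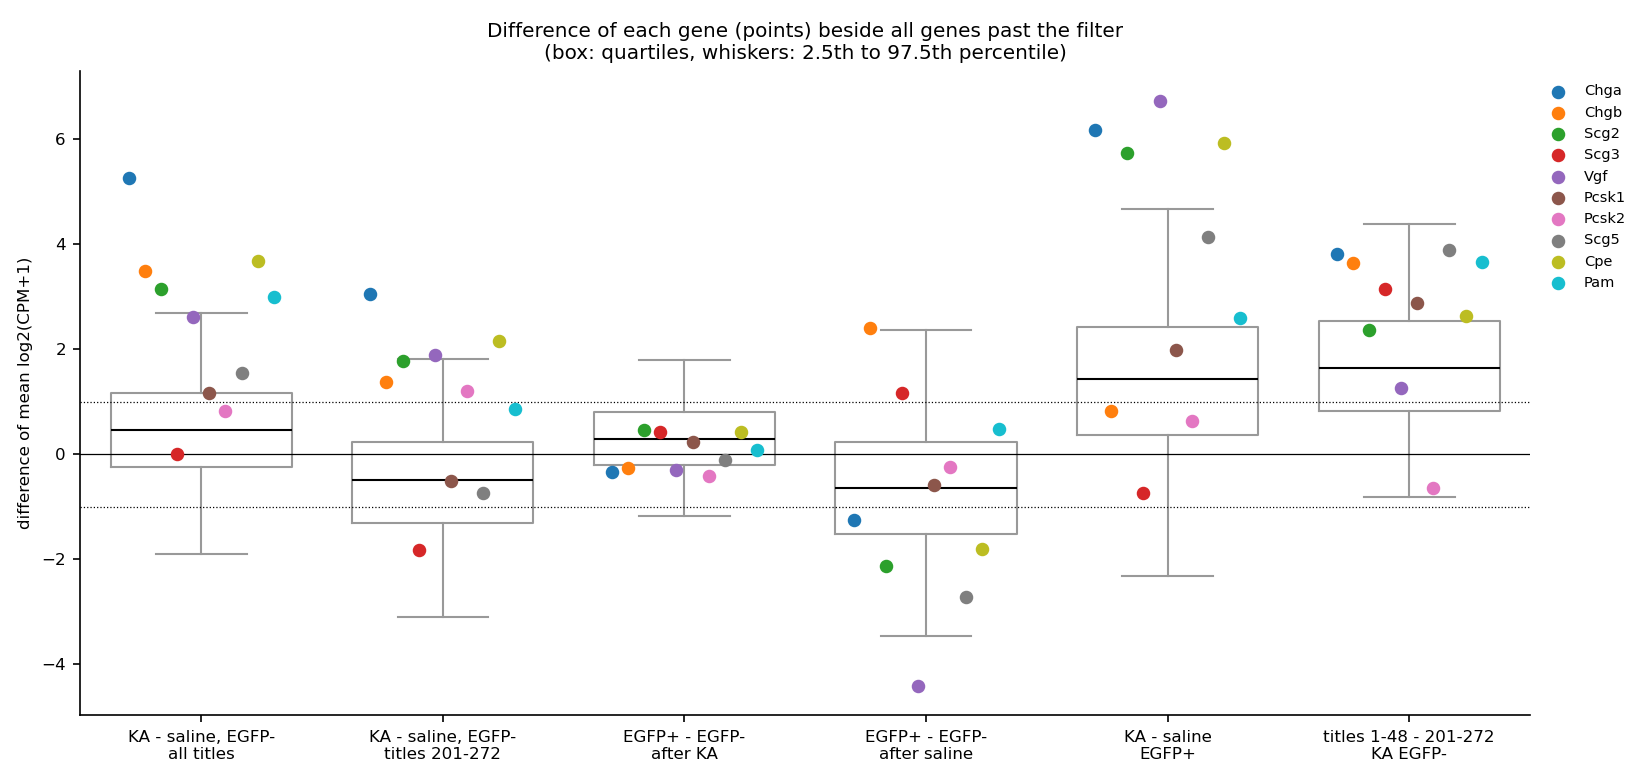
Difference of mean log2(CPM+1) on the vertical axis for each of the 10 genes (coloured points) in 6 comparisons, beside boxes of the 9046 genes past the filter (quartiles, with whiskers that enclose 95% of genes). Dotted lines mark a difference of 1. Chga, Chgb, Scg2, Cpe and Pam lie above the upper whisker for KA against saline in EGFP- cells, and all points lie between -0.43 and 0.46 for EGFP+ against EGFP- cells after KA.

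Per kilobase of exon, the order of the levels was the same in both KA groups for all 10 genes. As the mean of log2(CPM per kb + 1), the KA EGFP- cells had Scg2 at 9.89 ± 2.37, Cpe at 8.87 ± 2.7, Chga at 6.73 ± 3.14, Chgb at 6.53 ± 2.99, Vgf at 5.64 ± 2.37, Scg5 at 4.96 ± 3.42, Scg3 and Pam at 2.99 (SD 3.33 and 2.23), Pcsk2 at 2.97 ± 2.18 and Pcsk1 at 1.04 ± 1.74. In KA EGFP+ cells the levels ran from 10.32 ± 1.55 for Scg2 and 9.22 ± 0.99 for Cpe to 1.21 ± 1.95 for Pcsk1. In no group did neighbours in this order differ by more than the larger of their SDs. The widest gap in KA EGFP+ cells was 2.86, between Cpe and Chga. In saline EGFP- cells Scg2 (6.93 ± 3.64) and Cpe (5.32 ± 2.92) were again first and Pcsk1 (0.29 ± 0.89) last, while Chga (2.08 ± 2.82) was eighth. In saline EGFP+ cells Chgb was first at 5.41 ± 3.85.

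Over cells, the levels of most pairs of members had a weak positive correlation. The median Spearman correlation over the 45 pairs was 0.17 in the 27 saline EGFP-, 0.24 in the 36 KA EGFP- and 0.33 in the 27 KA EGFP+ cells. Scg2 and Cpe formed the closest pair in both KA groups (0.71 and 0.79) and had -0.08 in saline EGFP- cells, where Chgb and Vgf were closest at 0.51. Among the 21 KA EGFP- cells of the first series Scg2 and Cpe had 0.57, and 30 of the 45 pairs were positive. There Chga was negative with all 9 other members, lowest with Scg3 (-0.61) and Chgb (-0.53). The lowest pair over all KA EGFP- cells was Chga and Pcsk2 at -0.30. Cells share their depth and complexity: in KA EGFP- cells the number of genes counted had a correlation of 0.67 with Pam, 0.54 with Scg2, 0.40 with Cpe and 0.03 with Pcsk2. These values describe the cells and carry no test.

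**Figure D4:**
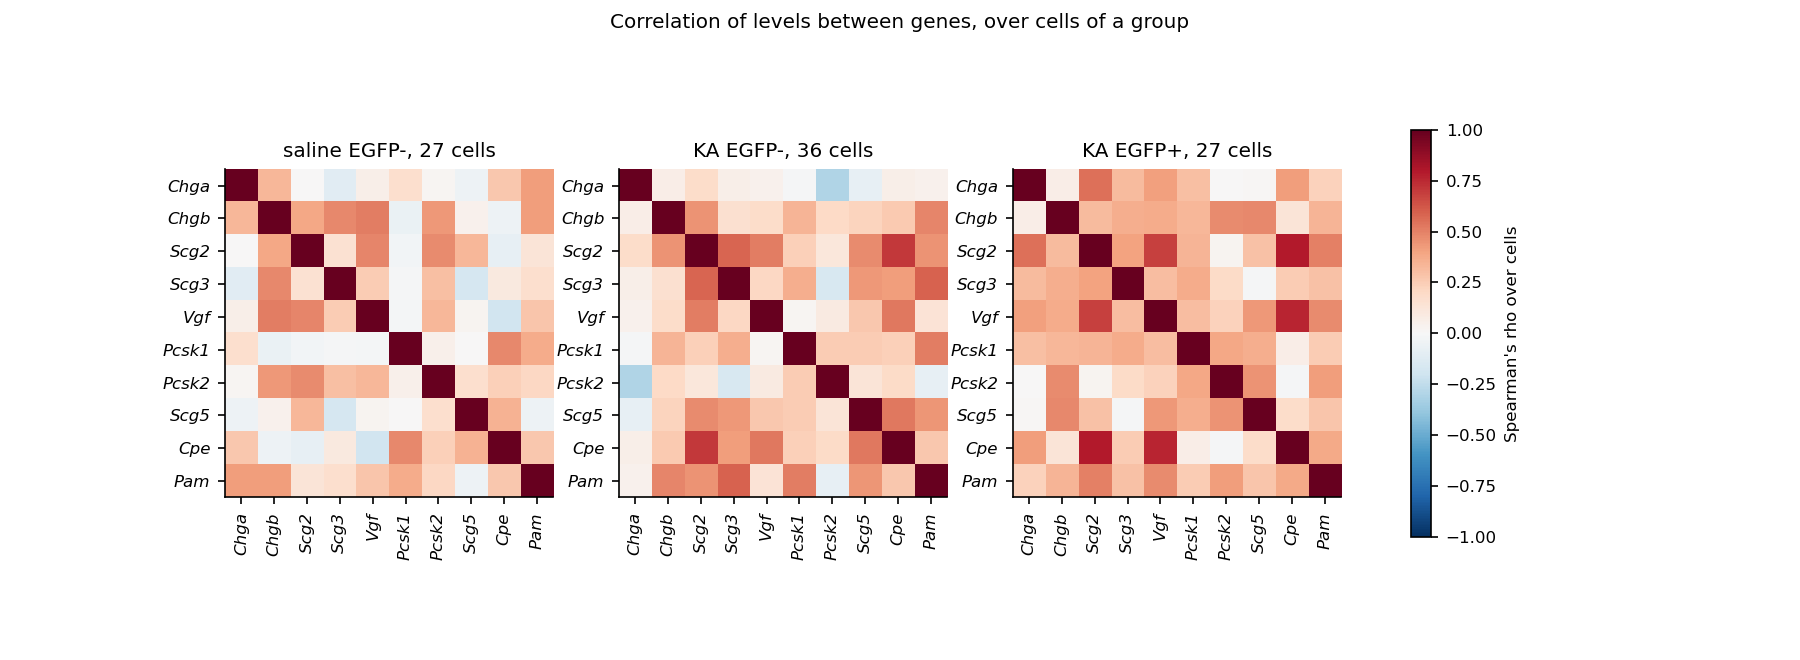
Spearman's rho of log2(CPM+1) between each pair of the 10 genes over the cells of 3 groups, on a colour scale from -1 (blue) to 1 (red). The darkest pair off the diagonal in both KA groups is Scg2 with Cpe, at 0.71 and 0.79, and no pair in saline EGFP- cells is above 0.51.

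The genes most like a member were sought over the 36 KA EGFP- cells among all genes past the filter. For Scg2 they were Atp6ap2, an accessory subunit of the vesicle proton pump (0.80), Tspan7, a membrane tetraspanin (0.79), and Tmem59l (0.78). In KA EGFP+ cells the same genes had 0.70, 0.56 and 0.60 with Scg2, and in saline EGFP- cells 0.21, 0.34 and 0.38. For Chga they were Polr2f, an RNA polymerase II subunit (0.63), Vegfa, a growth factor (0.62), and Rgs4, a regulator of G protein signalling (0.62). In KA EGFP+ cells these had only -0.15, 0.17 and 0.08, and in saline EGFP- cells 0.11, 0.17 and 0.22. For Pcsk1, absent from 24 of the 36 cells, they were Ksr2 (0.83), Kank3 (0.80) and Gm10644 (0.79), with 0.14, 0.33 and 0.25 in KA EGFP+ cells. These had 0.33, 0.35 and 0.21 in saline EGFP- cells.

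Of 25 precursor genes 11 passed the filter, and in KA against saline EGFP- cells 5 were higher by 1 or more and 1 was lower, with a median of 0.58 against 0.46 for all genes. The shares of all genes were 29.8% higher and 9.71% lower. Inside the second series 3 precursors were higher and 2 lower, against 9.52% and 33.4% of all genes. Penk (proenkephalin) had a mean log2 level of 0.96 ± 2.69 after saline and 8.83 ± 5.84 after KA, a difference of 7.87 that was 2.53 inside the second series. Cartpt, the CART peptide precursor, differed by 7.68 and 5.57, and Npy (neuropeptide Y) by 5.81 and 4.99. Lower values were found for Cck (cholecystokinin) at -1.84 and -0.64, Pdyn (prodynorphin) at -0.84 and -2.32, and Nucb2 (nesfatin precursor) at -0.83 and -1.09.

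Of 19 other processing enzymes with a row in the counts, 11 passed the filter, of which 4 were higher and 0 lower after KA (29.8% and 9.71% of all genes), and 3 and 3 inside the second series (9.52% and 33.4%). Ece1 (endothelin-converting enzyme) differed by 3.58 and 1.38, Cpd (carboxypeptidase D) by 1.94 and 1.11 and Ctsd (cathepsin D) by 1.34 and 0.69. At the other end were Rnpep, an aminopeptidase (-0.57 and -1.69), Pcsk7, a convertase of the constitutive pathway (-0.35 and -1.07), and Ctsb, cathepsin B (-0.23 and -1.26).

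The machinery of dense-core vesicles itself had 35 of 42 genes past the filter. Of these 18 were higher and 2 lower by 1 or more after KA, with a median of 1.01 against 0.46 for all genes, of which 29.8% were higher and 9.71% lower. Inside the second series 9 were higher and 8 lower, with a median of -0.06 against -0.5 for all genes, of which 9.52% were higher and 33.4% lower. Sorcs3, a sorting receptor, differed by 6.03 and 4.48, and the vesicle membrane proteins Ptprn2 and Ptprn by 2.98 and 1.93 and by 2.81 and 2.08. Sort1 (sortilin) was at -1.51 and -2.63, Rab2a, a small GTPase of vesicle biogenesis, at -1.25 and -2.78, and Tmed10 at -0.38 and -0.63.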

How the data were processed

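The submitters' processing notes name kallisto, featureCounts, STAR and Trimmomatic and the build GRCm38, without versions or roles. The authors deposited read counts per gene for all cells and for those they kept, and a normalized signal equal to the deposited count times 1 factor per cell. The labels list 115 cells. The kept table holds 95, and the study states 57 passed saline EGFP- cells where 27 were analysed here. Libraries carry no molecular barcodes or strand information.

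Each count was divided by the total of its cell over 22870 genes (92 spike-in rows, with 6 counts in all, left out) and scaled to 1000000. Differences are of mean log2(CPM+1), and a gene counts as higher or lower at 1 or more. Detection shares were computed after thinning to 1000000 counts. Poisson and Clopper-Pearson 95% intervals hold counting error only. Without mouse labels no test, p-value or standard error was made. The 4 groups come from the labels, and replicate numbers only name cells. Members and lists were chosen with earlier results of these data known. Named genes are all members, the 3 largest differences in each direction per list with the same sign inside the second series, and the 3 genes most correlated with Chga, Scg2 and Pcsk1. Alternatives changed the pseudocount, the scaling (signal of the authors, TMM), the filter and the cells. On simulated counts the script recovered 100% of 200 genes changed by 2 on the log2 scale, drawn from those with the highest levels. The simulation had a smaller spread between cells than the members and no title series. It therefore checks the calculation only. Exon lengths are from GENCODE, promoters from RefSeq. Python 3.11.15, numpy, pandas, scipy, R 4.3.3 and edgeR 4.0.16 (TMM only) were used.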

Additional observations from a re-analysis of the deposited data

Results flagged for a closer look

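In the 5 saline EGFP+ cells, 8 members with a nonzero spread were examined for a cell far from the rest, and 1 stood out: Scg5 had a log2 level of 5.83 in the cell of title M252 and 0.0 in the other 4. With 4 cells at the same value any other value in the fifth stands out, so the chance of about 1 in 20 groups that holds for continuous values does not describe it. The same cell was the only one of the 5 that was not microglia-rich.

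Of the 20 cells absent from the table of kept cells, which are used here only in the alternative with all cells before QC, 17 had a count of at least 1 of the 10 genes. Their median total was 474183 counts and their median number of genes 1178.5. Cpe was counted in 10 of them, with a highest value of 10850 CPM, Chgb in 9, Scg2 in 8 and Pcsk1 in 2.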

How the results depend on the processing

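Of 1050 differences of single members in the alternatives, 11 with a reported size of 1 or more changed sign. Of the rest, 20 moved by more than 1 SD over cells. This SD is wide (3.68 for Chga in KA EGFP- cells), so the 1019 within it do not show stability. The sign changed in 84: 73 had a reported difference under 1 in size and these 11 one of 1 or more. For KA against saline in EGFP- cells, Pcsk1 and Scg5 turned to -0.52 and -0.73 inside the second title series. There, summed counts gave 0.02 for Scg3, and cells also labelled as passed gave -0.39 for Chgb. For EGFP+ against EGFP- cells after saline, cells also labelled as passed gave 0.16 for Scg2 and 0.19 for Cpe, and leaving out microglia-rich cells gave -3.48 for Chgb, -3.92 for Scg3 and 1.41 for Scg5. That setting also gave -0.73 for Scg5 in KA against saline EGFP+ cells, where leaving out single EGFP+ cells gave -1.17 (inside the second series without title M234) to 5.3. The cause was not tested. Leaving out cells of titles M201 to M272 by run, the cell with the fewest genes in each group, or single KA EGFP+ cells inside the second series, was chosen after seeing the data.

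Counts of members past the fold moved as follows. For KA against saline in EGFP- cells 1 member was lower with group medians and 1 inside the second series, against 0. Among all genes 9.3% were lower with group medians and 33.4% inside the second series, against 9.71%. Inside that series 2 were lower with a pseudocount of 0.1, with the authors' signal, with group medians and without titles M217 to M232, and 0 with a pseudocount of 10, against 1. The shares of all genes lower were 46.5%, 44.1%, 22.5% and 31.5% in that order, and 14% with a pseudocount of 10, against 33.4%. For EGFP+ against EGFP- cells after KA, against 0 and 0, 1 was higher with summed counts and 1 with group medians, 1 was lower in cells also labelled as passed and 1 without microglia-rich cells, 4 were lower inside the first series, 3 inside titles M20 to M48, and 7 were higher and 1 lower inside the second, where leaving out 1 KA EGFP+ cell gave 1 to 7 higher and 1 to 2 lower. Among all genes 10.1% were higher with summed counts and 24.2% with group medians. In cells also labelled as passed 7.1% were lower, without microglia-rich cells 9.9%, inside the first series 20.7% and inside titles M20 to M48 29.7%. Inside the second series 35% were higher and 23.3% lower, and leaving out 1 cell gave 27.3% to 46.6% and 21.2% to 39.8%. For EGFP+ against EGFP- cells after saline, the 2 higher members became 1 with a pseudocount of 10, with group medians, without microglia-rich cells and with all cells before QC, and 4 with summed counts. The shares of all genes higher were 5.7%, 11.9%, 6.8%, 12.1% and 15.7% in that order, against 11.6%. The 5 lower members became 2 in cells also labelled as passed, 3 before QC and 3 without the cell with the fewest genes. Here 51.6%, 25.9% and 40.7% of all genes were lower, against 39.3%. Leaving out 1 saline EGFP+ cell at a time gave 1 to 3 higher and 2 to 7 lower, against 9.8% to 18.5% and 35.8% to 49.4% of all genes. For KA against saline EGFP+ cells, 1 lower member in place of 0 appeared with a pseudocount of 0.1, the authors' signal, TMM, summed counts, cells also labelled as passed, the second series and without the cell with the fewest genes, and leaving out 1 saline EGFP+ cell gave 0 to 1 lower and 7 to 8 higher. The shares of all genes lower were 10.4%, 12.7%, 11.4%, 17.2%, 8.2%, 25.3% and 8.7% in that order, against 8.36%. Leaving out 1 saline EGFP+ cell gave 6.8% to 12.6% lower and 55.8% to 68.4% higher. Inside the second series, leaving out 1 KA EGFP+ cell gave 2 to 4 lower and 4 to 8 higher, against 22.5% to 37.5% and 28.8% to 46.6% of all genes. The mean over the members ran from 1.3 to 4.04 over both. Between the title series of KA EGFP- cells, 1 was lower with the authors' signal and 1 without the cell with the fewest genes, against 0, and 5 were higher with summed counts, against 9. Of all genes 25.9% were higher and 21.5% lower with summed counts, against 70.3% and 1.95%. With the authors' signal 2.5% were lower, and without the cell with the fewest genes 2.2%. No paired analysis was possible because replicate numbers tie no cells of different groups and no result comes from a test. The pooled share of genes higher after KA in EGFP- cells went from 29.8% to 42% with a pseudocount of 0.1 and to 11% with 10, and the median of all genes from 0.46 to 0.7 and 0.22. Counts are deep enough that the spread between cells, and the unknown mice, limit precision.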
